A study of Homo sapiens with 4 samples.

Results

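The SMAD genes and the corepressor genes *SKI* and *SKIL* were measured in stellate cells given a miR-6133-5p mimic. The 10 genes were chosen by symbol (*SMAD1* to *SMAD7*, *SMAD9*, *SKI* and *SKIL*) from the 63677 gene identifiers in the count table. All 10 had enough counts to be among the 18252 genes tested. LX-2, the cells used, is 1 established line of human hepatic stellate cells. In one group of libraries the LX-2 cells had received the miR-6133-5p mimic by transfection at 20 nM, and in the other the control miControl at the same 20 nM. Both groups received rhTGF-β1 at 5 ng/mL, and RNA was taken 24 h after it was added. Cells without rhTGF-β1 were not analysed here, so each difference is one between stimulated cultures. Each group held 2 libraries, called replicates 1 and 2. The labels do not say whether the replicates were separate cultures, so the p-values measure only the spread between these samples, which may be technical.

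SMAD proteins carry signals of the TGF-β family from receptors at the cell surface to the nucleus. TGF-β receptors phosphorylate SMAD2 and SMAD3, BMP receptors phosphorylate SMAD1, SMAD5 and SMAD9, and the phosphorylated proteins enter the nucleus together with SMAD4. SMAD6 and SMAD7 inhibit the pathway, SKI and the related SKIL protein repress transcription by binding SMADs, and in activated stellate cells the TGF-β branch is known for driving collagen and α-smooth muscle actin genes.

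Counts on genes summed to 51862006 and 57903388 in miControl replicates 1 and 2 and to 61747010 and 93811213 in miR-6133-5p replicates 1 and 2. Levels are given as CPM, in which each count is divided by the library total after TMM scaling, so that 1 count stood for between 0.0101 and 0.0203 CPM. Stellate cell markers were read first as a check of the label. Of 12 such markers, 9 lay above 1 CPM in every library, with *SPARC* at the highest mean CPM, whereas *DES* had at most 2 counts and *LRAT* at most 7. The summed level of these markers was 9123 and 8553 CPM in the miControl libraries and 6359 and 5735 CPM in the miR-6133-5p libraries, and its part in the results on SMAD genes was not tested. *COL1A1*, at 3112 and 2723 against 995 and 1133 CPM, and *SPARC*, at 3677 and 3602 against 2879 and 2623 CPM, made up most of the difference in the sum. *VIM* and *PDGFRB* had log2 fold changes of -0.02 and 0.04 (edgeR adjusted p = 0.937 and 0.849), *TIMP1* was higher with 0.42 (adjusted p = 0.0134), and *RGS5* had 0.58 (adjusted p = 0.0609). The 6 genes were named after their values were seen, and *COL1A1*, *COL1A2*, *COL3A1* and *ACTA2* are also in the list of SMAD2 and SMAD3 readouts. Markers of other cells were low. The 4 blood cell markers summed to at most 0.325 CPM, with *CD68* at the highest mean CPM of the 4 libraries, though not in each of them, and *CD163* and *CD3E* at 0 counts in all 4 libraries, where 3 counts would be at most 0.0610 CPM. The 3 endothelial markers with a match, *VWF* at the highest mean CPM, summed to at most 1.35 CPM, and *PECAM1* had no match. The 5 hepatocyte markers summed to between 2.01 and 2.85 CPM, nearly all of it *SERPINA1*, with *TTR* at 0 counts. The 4 epithelial markers summed to 3.70 and 4.59 CPM in the miControl group and 6.82 and 7.32 CPM in the miR-6133-5p group, mostly from *KRT7*, while *EPCAM* and *CDH1* had at most 4 counts. The part of *KRT7* in the results was not tested either.

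A gene was called lower or higher when its adjusted p-value was below 0.01 and its log2 fold change, miR-6133-5p against miControl, went beyond 0.8 (edgeR quasi-likelihood test, 2-sided, Benjamini–Hochberg adjustment over all 18252 genes). Of the SMAD and SKI genes, 1 of 10 was called lower, *SMAD1*, where 5.54% of all tested genes were called lower. None was called higher by edgeR or by DESeq2 (2.90% of all tested genes by edgeR), and at an unadjusted p-value below 0.05 there was 1 higher gene, *SMAD3*, against 20.0% of all tested genes. At an adjusted p-value below 0.05 with no limit on size, 4 of 10 were lower (*SMAD1*, *SMAD9*, *SMAD7* and *SKI*), against 16.1% of all tested genes, and 1 of 10 was higher (*SMAD3*), against 14.1%. For the same 4 genes, the highest miR-6133-5p library lay under the lowest miControl library, against 31.3% of all tested genes. The reverse held for *SMAD3* and *SMAD6*, against 33.2%. The median log2 fold change was -0.08 over the 10 genes and 0.03 over all tested genes. With 1 library left out the median of the 10 genes ran from -0.19 without miControl replicate 1 to 0.02 without miControl replicate 2, so its sign was not stable. Scaling by library totals alone moved the median of all tested genes from 0.03 to 0.19, and the share of called genes that were lower from 65.6% to 42.1%. With that scaling the median of the 10 genes was 0.09, no member was called lower, and *SMAD7* and *SKI* did not pass the adjusted p-value of 0.05, while 11.1% of all tested genes were lower and 25.2% higher at 0.05. In fits without 1 miControl library fewer of all tested genes passed, with 8.25% lower and 5.19% higher at 0.05 without replicate 1 and 9.70% and 5.85% without replicate 2. In these bulk samples, fewer cells of a type and less RNA per cell cannot be told apart.

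**Figure D1:**
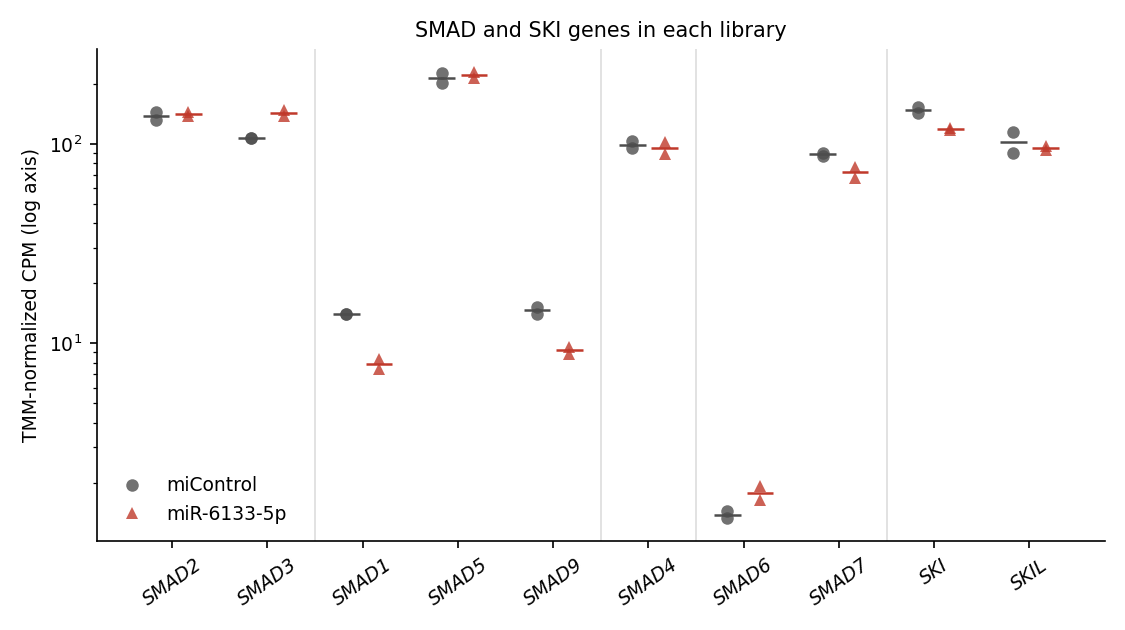
Level of each SMAD and SKI gene in each library as TMM-normalized CPM on a log axis, with miControl as grey circles, miR-6133-5p as red triangles and the mean of each pair of libraries as a line. *SMAD1* and *SMAD9* lie near 14 CPM in miControl and below 10 CPM in miR-6133-5p, and *SMAD3* lies above its miControl values in both miR-6133-5p libraries.

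Among the SMADs of the TGF-β branch, *SMAD3* rose and *SMAD2* did not pass the test. *SMAD3* (ENSG00000166949), which encodes a SMAD that binds DNA directly, lies on chromosome 15 from 67356101 to 67487511 in GRCh37. Its level was 108 CPM in miControl replicate 1, 107 CPM in miControl replicate 2, 139 CPM in miR-6133-5p replicate 1 and 148 CPM in miR-6133-5p replicate 2. The miR-6133-5p libraries were both high and the groups did not overlap. Mean levels were 108 ± 0.448 CPM and 143 ± 6.79 CPM (SD, n = 2). On the log2 scale *SMAD3* was higher by 0.41 (standard error 0.102, 95% confidence interval 0.19 to 0.63, edgeR adjusted p = 0.00767). This is a rise of 33.2% with an interval from 14.4% to 55.1%, under the fold required for a call. Of all tested genes, 79.6% had a lower log2 fold change than *SMAD3*. With library totals alone the log2 fold change was 0.58 (adjusted p = 0.000696). Leaving out replicate 1 or replicate 2 of miControl gave nearly the same size, 0.41 and 0.38, with adjusted p-values of 0.121 and 0.132, in fits where 5.19% and 5.85% of all tested genes were higher at 0.05, against 14.1% with all libraries.

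*SMAD2* (ENSG00000175387), on chromosome 18 from 45335328 to 45457517, encodes the partner of SMAD3 in the same branch, whose common splice form does not bind DNA directly. Its level was 132 and 146 CPM in the miControl libraries and 145 and 138 CPM in the miR-6133-5p libraries. The miR-6133-5p values lay within the miControl range, so the groups overlapped. The log2 fold change was 0.03 (standard error 0.105, edgeR adjusted p = 0.872), with an interval from -0.20 to 0.26, which holds differences from a fall of 12.8% to a rise of 19.4%. Its sign turned when miControl replicate 1 was left out, to -0.05, or miR-6133-5p replicate 1, to -0.03.

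Among the SMADs of the BMP branch, *SMAD1* and *SMAD9* were lower and *SMAD5* did not pass the test. *SMAD1* (ENSG00000170365) lies on chromosome 4 from 146402346 to 146480328. It was read at 14.0 CPM in each miControl library, from 688 counts in replicate 1 and 763 in replicate 2, and at 7.40 and 8.35 CPM in miR-6133-5p replicates 1 and 2, from 484 and 828 counts. Both miControl libraries were high and both miR-6133-5p libraries low, with no overlap. The log2 fold change of *SMAD1* was -0.83 (standard error 0.128, 95% confidence interval -1.10 to -0.55, edgeR adjusted p = 0.000312), so that its level fell by 43.6%, and 8.72% of all tested genes had a lower log2 fold change. The interval spans the threshold of 0.8, and the call was lost in several ways. With library totals alone the log2 fold change was -0.66 (adjusted p = 0.00135), and without miR-6133-5p replicate 1 it was -0.76 (adjusted p = 8.6e-05), both short of the fold. Without miControl replicate 1 the adjusted p-value was 0.0126, with a log2 fold change of -0.84. When edgeR's glmTreat tested the fold against 0.8 itself, *SMAD1* was not called. In all 4 fits without 1 library, the adjusted p-value of *SMAD1* stayed below 0.05. The antisense gene *SMAD1-AS1* overlaps 5.30% of the exon bases of *SMAD1* and had 0 counts in every library.

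*SMAD9* (ENSG00000120693), on chromosome 13 from 37418968 to 37495024, encodes the BMP branch SMAD also known as SMAD8. Its level was 14.1 and 15.2 CPM in miControl replicates 1 and 2 and 9.64 and 8.86 CPM in miR-6133-5p replicates 1 and 2. Again both miR-6133-5p libraries were low and the groups did not overlap. The log2 fold change was -0.67 (standard error 0.125, 95% confidence interval -0.94 to -0.40, edgeR adjusted p = 0.0013), and the level was 0.630 of that in miControl, with an interval from 0.523 to 0.760. This passed the adjusted p-value of 0.01 and not the fold of 0.8. With library totals alone the log2 fold change of *SMAD9* was -0.50 (adjusted p = 0.00705), and over the 4 fits without 1 library it ran from -0.74 to -0.62, with adjusted p-values of at most 0.0243.

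*SMAD5* (ENSG00000113658), on chromosome 5 from 135468534 to 135524435, is the third receptor-regulated SMAD gene of the BMP branch. Its level was 204 and 229 CPM in the miControl libraries and 214 and 232 CPM in the miR-6133-5p libraries, so the groups overlapped. For *SMAD5* the log2 fold change was 0.04 (standard error 0.108, edgeR adjusted p = 0.813), with an interval from -0.19 to 0.28. Its sign turned, to -0.05 and -0.03, without miControl replicate 1 and without miR-6133-5p replicate 2. The antisense gene *SMAD5-AS1*, which overlaps 6.70% of the exon bases of *SMAD5*, had at most 6 counts in any library.

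*SMAD4* (ENSG00000141646), the common partner of both branches, lies on chromosome 18 from 48554898 to 48611415. It was read at 95.2 and 103 CPM in the miControl group and at 103 and 89.7 CPM in the miR-6133-5p group. The miR-6133-5p libraries lay on both sides of miControl replicate 1, and the groups overlapped. *SMAD4* had -0.05 as its log2 fold change (standard error 0.109, edgeR adjusted p = 0.797), with an interval from -0.28 to 0.19. The sign turned with library totals alone, to 0.12, and without miR-6133-5p replicate 2, to 0.03. A gene on the same strand overlaps 4.90% of the exon bases of *SMAD4*, and reads there could belong to either gene.

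**Figure D2:**
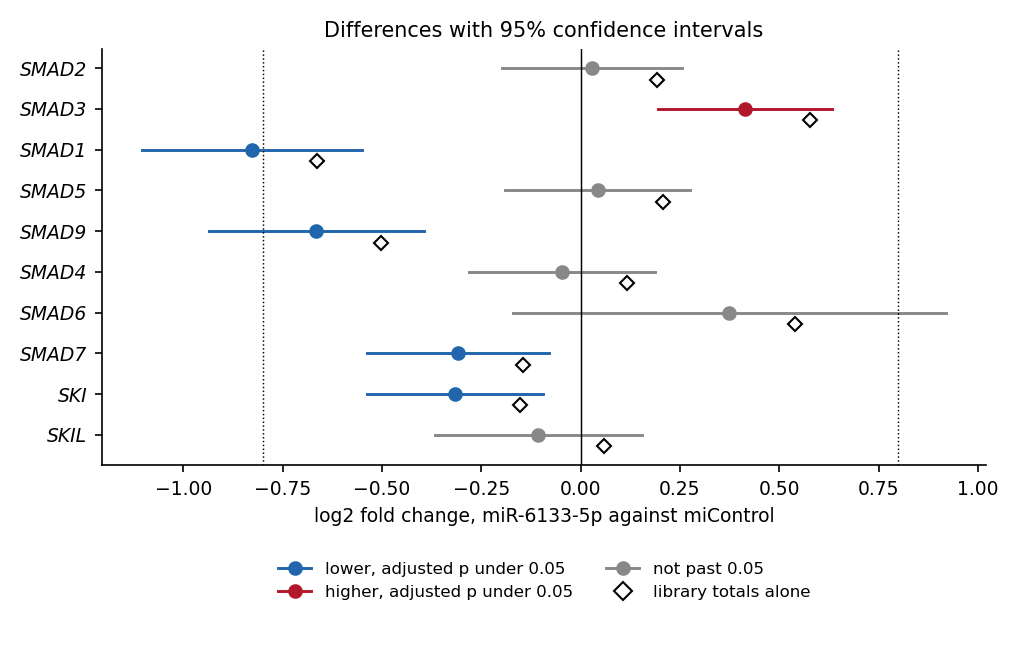
Log2 fold change of each SMAD and SKI gene, miR-6133-5p against miControl, with its 95% confidence interval from edgeR. Blue marks genes lower and red genes higher at an adjusted p-value below 0.05, and dotted lines mark the threshold of 0.8 on either side. Open diamonds give the value with library totals alone, which is higher for all 10 genes and turns from negative to positive for *SMAD4* (0.12) and *SKIL* (0.06).

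Of the inhibitory SMADs, *SMAD7* was lower and *SMAD6* did not pass the test. *SMAD7* (ENSG00000101665), a feedback inhibitor that TGF-β signals induce and that brings ubiquitin ligases to the receptors, lies on chromosome 18 from 46446223 to 46477335. Its level was 90.8 and 87.7 CPM in miControl replicates 1 and 2 and 76.8 and 67.4 CPM in miR-6133-5p replicates 1 and 2. Both miR-6133-5p libraries were below both miControl libraries. The means were 89.3 ± 2.18 CPM and 72.1 ± 6.64 CPM (SD, n = 2), and the log2 fold change was -0.31 (standard error 0.106, 95% confidence interval -0.54 to -0.08, edgeR adjusted p = 0.0423). The level of *SMAD7* fell by 19.3%, and 26.2% of all tested genes had a lower log2 fold change. The test was not passed with library totals alone, where the log2 fold change was -0.14 (adjusted p = 0.318). It was not passed without miControl replicate 1 (-0.30, adjusted p = 0.244), without miControl replicate 2 (-0.36, adjusted p = 0.14) or without miR-6133-5p replicate 2 (-0.23, adjusted p = 0.0907) either, while without miR-6133-5p replicate 1 it was (-0.42, adjusted p = 0.00258).

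*SMAD6* (ENSG00000137834), an inhibitor best known for acting on the BMP branch, was the member with the fewest reads. It lies on chromosome 15 from 66994574 to 67075187, with 280913 bases between it and *SMAD3*. Only 65 and 78 counts fell on it in the miControl libraries, and 107 and 191 in the others, which gave 1.32 and 1.43 CPM against 1.64 and 1.93 CPM. The miR-6133-5p values were the higher ones and did not overlap with miControl. *SMAD6* nevertheless did not pass the test, the log2 value being 0.37 (standard error 0.252, 95% confidence interval -0.17 to 0.92, edgeR adjusted p = 0.296). Its size depended on single libraries, with 0.23 without miR-6133-5p replicate 2 and 0.47 without miR-6133-5p replicate 1.

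Sequences before the starts of the members were searched for letters that SMADs are known to bind, because SMAD genes are themselves among the targets of the pathway. RefSeq promoter windows (GRCh38.p14, 250 bases before to 50 after each start) were found for 9 of the 10 genes, all but *SKI*, with 20 windows in all. The palindrome GTCTAGAC was in 71 of the 35116 windows of all genes, 0.202%, and among the members in that of *SMAD6*. The shorter box CAGAC, searched on both strands, was in 8 of the 20 member windows and in 45.3% of all windows. It was found for *SMAD1*, *SMAD3*, *SMAD7*, *SMAD9* and *SKIL*. The element GGCGCC, which reads the same on both strands, was in 8 of the 20 member windows and in 19.2% of all windows, for 6 members, *SMAD1* to *SMAD5* and *SKIL*. No matches overlapped each other. The following stretches are shown 5′ to 3′ on the strand of the gene, with the match in capitals and up to 10 bases on each side, for the palindrome and, of the members that were lower, for the boxes before the starts of *SMAD7* and *SMAD1*.
SMAD6: ccgccaaagtGTCTAGACtggcatatga
SMAD7: cggacgccccCAGACctctgaggtt
SMAD7: cttattttgcCAGACgtctcatgcg
SMAD7: tgctcctgcaGTCTGcggttaaaaa
SMAD1: ggcgcctcccGTCTGctcggaggag
They lie, in this order and in GRCh38.p14, at chr15:66702214-66702241 on the plus strand, chr18:48951168-48951192, chr18:48951079-48951103 and chr18:48949512-48949536 on the minus strand, and chr4:145482241-145482265 on the plus strand, and GTCTG is CAGAC read on the other strand. The last *SMAD7* stretch comes from the window of a different start, at 48949333, farther along the gene. The *SMAD7* stretches above it come from the window of the start at 48950965. Matches of CAGAC were found both for members that were lower and for *SMAD3*, which was higher. A match is a description of letters only, and binding was not measured.

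Of the corepressor genes, *SKI* was lower and *SKIL* did not pass the test. *SKI* (ENSG00000157933), which encodes a protein that holds SMAD complexes in an inactive state, lies on chromosome 1 from 2158827 to 2241652. Its level was 154 and 143 CPM in miControl replicates 1 and 2 and 117 and 121 CPM in miR-6133-5p replicates 1 and 2. Both miR-6133-5p libraries were low, close to each other and clear of the miControl range. The log2 fold change of *SKI* was -0.32 (standard error 0.102, 95% confidence interval -0.54 to -0.10, edgeR adjusted p = 0.0322), so that its level fell by 19.7%. The difference did not pass the test with library totals alone (-0.15, adjusted p = 0.272), without miControl replicate 1 (-0.27, adjusted p = 0.272) or without miControl replicate 2 (-0.40, adjusted p = 0.102).

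*SKIL* (ENSG00000136603), on chromosome 3 from 170075130 to 170114623, encodes SnoN, a relative of SKI whose gene TGF-β is known to induce. It was read at 90.7 and 115 CPM in miControl replicates 1 and 2 and at 93.8 and 97.4 CPM in the miR-6133-5p libraries. Here the spread lay between the miControl libraries, and both miR-6133-5p values fell between them. *SKIL* had -0.11 as its log2 fold change (standard error 0.121, 95% confidence interval -0.37 to 0.15, edgeR adjusted p = 0.559). It turned to 0.06 with library totals alone and to 0.05 without miControl replicate 2, and it was -0.28 (adjusted p = 0.254) without miControl replicate 1.

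**Figure D3:**
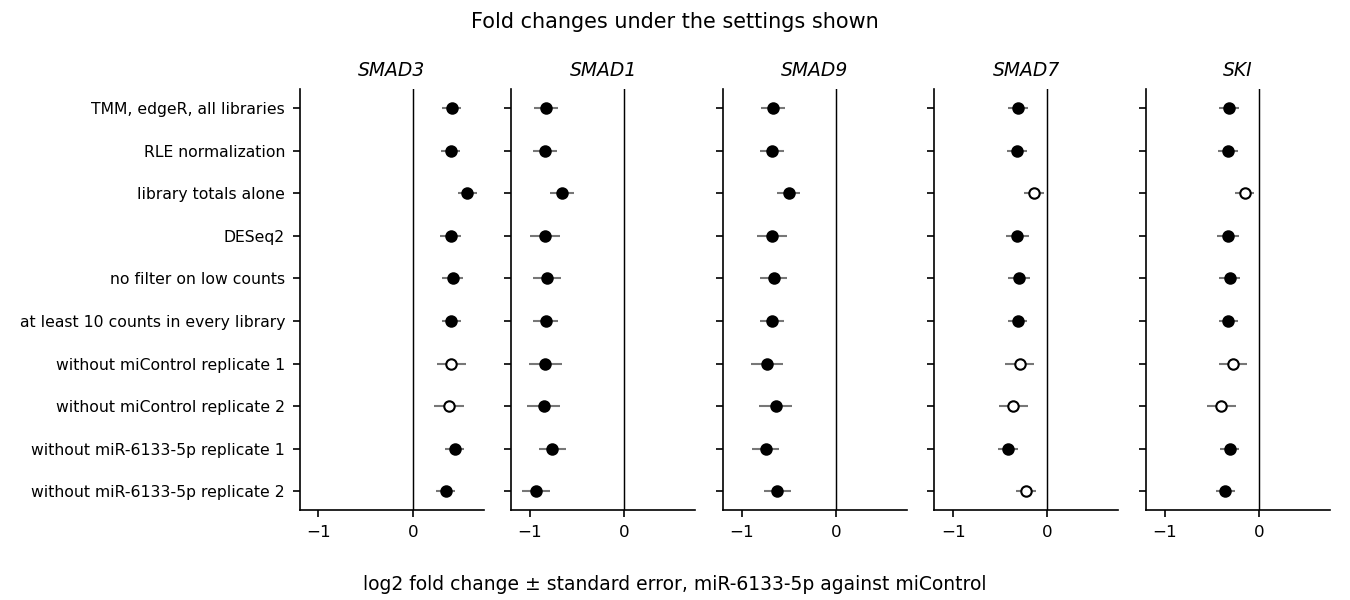
Log2 fold change ± standard error of the 5 SMAD and SKI genes past an adjusted p-value of 0.05, under the settings shown, which leave out the replicate block and glmTreat. Filled points are below 0.05 and open points are not, so that *SMAD1* and *SMAD9* are filled in every setting shown, *SMAD3* is open without either miControl library, and *SMAD7* and *SKI* are open with library totals alone and without either miControl library, *SMAD7* also without miR-6133-5p replicate 2.

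Ratios of counts between 2 members within a library need no scaling between libraries, and gene length cancels when the same ratio is compared across libraries. These pairs were chosen after their values were seen, and the ratios are given as a description. Within the TGF-β branch, the ratio of *SMAD3* to *SMAD2* was 0.818 and 0.736 in the miControl libraries and 0.953 and 1.07 in the miR-6133-5p libraries. Both miR-6133-5p ratios were the higher ones. The ratio of *SMAD7* to *SMAD3*, an inhibitor to a SMAD that carries the signal, was 0.841 and 0.818 in miControl and 0.554 and 0.455 in miR-6133-5p. For *SKI* to *SMAD3* it was 1.43 and 1.33 against 0.847 and 0.818. In both of these ratios the groups were apart. In the BMP branch, the ratio of *SMAD1* to *SMAD5* was 0.0687 and 0.0612 in miControl and 0.0346 and 0.0361 in miR-6133-5p, and that of *SMAD9* to *SMAD5* was 0.0693 and 0.0664 against 0.0451 and 0.0382. Both were lower in each miR-6133-5p library than in each miControl library. The ratio of *SMAD5* to *SMAD2*, genes of different branches that did not pass the test, was 1.54 and 1.57 in miControl and 1.47 and 1.68 in miR-6133-5p, with overlap. The groups were apart, however, for *SMAD4* to *SMAD2*, 0.722 and 0.709 against 0.705 and 0.650, although neither gene passed the test. They overlapped for *SKI* to *SKIL*, 1.70 and 1.24 against 1.25 and 1.24, although *SKI* passed it. *SMAD7* to *SMAD2* had 0.688 and 0.601 against 0.528 and 0.488, with the groups apart. With 2 libraries a group, an exact permutation test of such a ratio cannot give a p-value below 0.333.

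**Figure D4:**
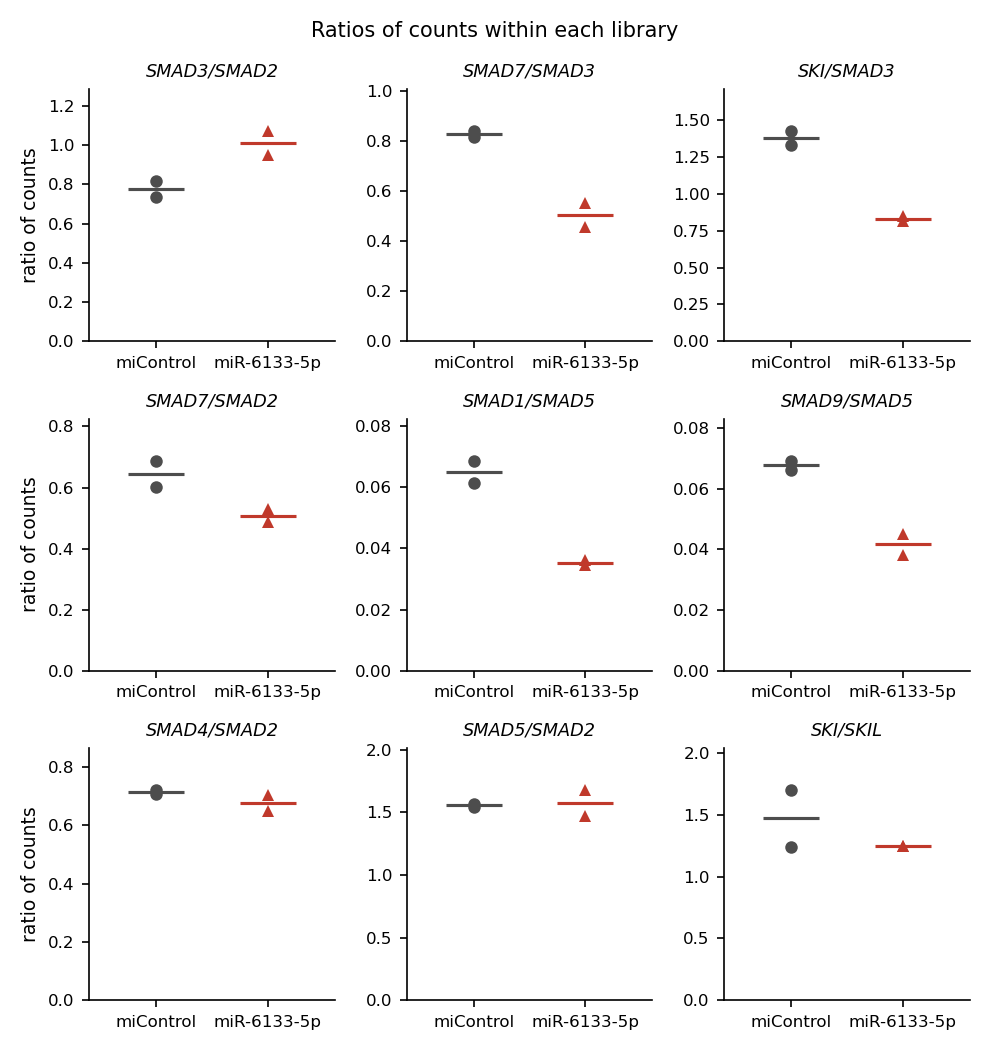
Ratios of counts between members of the family within each library, with miControl as grey circles, miR-6133-5p as red triangles, means as lines and each axis starting at 0. The groups overlap for *SMAD5*/*SMAD2* and *SKI*/*SKIL* and are apart for the other 7 of the 9 ratios, higher in miR-6133-5p for *SMAD3*/*SMAD2* and lower for the rest. Of all tested genes taken singly, 31.3% were apart with miR-6133-5p lower and 33.2% with it higher. The ratios share members and were chosen after their values were seen, so they are not separate observations.

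Levels of the SMAD and SKI genes were compared with each other per length, as CPM per kb of exon. With the union of all annotated exons, *SMAD5* came first in the miControl group at 23.9 ± 1.97 CPM per kb (SD, n = 2), followed by *SMAD7* at 22.6 ± 0.552 and *SKI* at 22.2 ± 1.18. These 3 levels lay within their spread of each other. *SKIL* followed at 12.7 ± 2.14 CPM per kb and *SMAD3* at 10.8 ± 0.0447, also within the spread of *SKIL*. *SMAD4* was at 5.06 ± 0.295 CPM per kb and *SMAD2* at 3.81 ± 0.271. Lower still with this length were *SMAD9* at 2.46 ± 0.127 CPM per kb, *SMAD1* at 1.97 ± 0.00143 and *SMAD6* at 0.161 ± 0.00909. In the miR-6133-5p group *SMAD3* stood at 14.3 ± 0.678 CPM per kb, above *SKIL* at 11.8 ± 0.312, while *SMAD7* stood at 18.3 ± 1.68 and *SKI* at 17.8 ± 0.398. The order depended on the length used, since the annotated exons of *SMAD2* cover 36426 bases and its coding part 1401. Per coding length of the canonical transcript, an alternative chosen after the values were seen, *SMAD2* was second in the miControl group at 99.2 CPM per kb. Per length of the whole canonical transcript, also such an alternative, *SMAD1* at 4.66 CPM per kb stood above *SMAD2* at 4.01 in the miControl group. *SMAD5* was first and *SMAD6* last in both groups with all 3 lengths tried, the union of exons, the canonical transcript and its coding part.

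The other genes of the pathway were read as lists of receptors, nuclear cofactors, readouts and 2 further groups. In each list the gene with the highest CPM, averaged over the libraries, is named, with no correction for length. Of 13 tested receptor genes, 5 were called lower and 1 higher, against 5.54% and 2.90% of all tested genes, and the same numbers passed the adjusted p-value of 0.05, against 16.1% and 14.1%. Their median log2 fold change was -0.16, against 0.03 for all tested genes. It was 0.00 with library totals alone and -0.29 over receptors with at least 10 counts in every library. *TGFBR2*, the type II receptor of TGF-β, had 542 and 552 CPM in the miControl libraries and 109 and 112 CPM in the miR-6133-5p libraries. This was a difference of -2.31 on the log2 scale (standard error 0.105, edgeR adjusted p = 1.98e-08). Some receptors of the BMP branch were also called lower, while *BMPR1A* (-0.07, adjusted p = 0.682), *ACVRL1* (0.25, adjusted p = 0.802) and *ACVR2A* (-0.40, adjusted p = 0.0623), named after their values were seen, did not pass the test. *ACVRL1* had at most 18 counts in a library and a standard error of 0.606, so its value says little. *BMPR2*, the BMP type II receptor, with the highest CPM of the list, changed by -1.64 on the log2 scale (standard error 0.141), and *ACVR1* and *ENG* had log2 fold changes of -1.07 and -0.97. *BMPR1B*, named because it completes the count and outside the rule for named genes, had -0.96 (edgeR adjusted p = 0.00373), with adjusted p-values of 0.0546 and 0.0219 without miControl replicate 1 and replicate 2 and 0.0101 with library totals alone. *TGFBR3*, which encodes the coreceptor betaglycan, was the gene called higher, with 1.49 (standard error 0.108). Without miR-6133-5p replicate 1, 2 receptor genes were higher at 0.05, as were 13.7% of all tested genes.

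Transcripts known to respond to SMAD2 and SMAD3 were mostly lower. Of 25 such readouts, all tested, 12 were called lower and none higher by edgeR, against 5.54% and 2.90% of all tested genes, nor any higher by DESeq2. At an adjusted p-value of 0.05, 21 were lower and 1 higher, against 16.1% and 14.1% of all tested genes, and the counts at an unadjusted 0.05 were also 21 and 1, against 20.3% and 20.0%. The median log2 fold change was -0.90, -0.74 with library totals alone and -0.79 without miR-6133-5p replicate 1. The largest falls of the list were those of *CCN2* at -2.31, *ACTA2* at -1.95, *COL1A1* at -1.46 and *LOX* at -1.23, and *FN1*, with the highest CPM, had -1.07. Some of these genes, *COL1A1* and *ACTA2* among them, were followed by the study in this experiment, so the list is not independent evidence of its direction. SMAD protein and its phosphorylation were not measured in these libraries, and the part of SMAD2 and SMAD3 in the falls was not tested. The study reported from Western blots that the mimic left phosphorylated SMAD2 and SMAD3 unchanged. In the study, small interfering RNAs against *SMAD2*, *SMAD3* and *SMAD4* lowered *COL1A1* and *ACTA2* slightly, without statistical significance. Genes on the other strand overlap 35.9% of the exon bases of *ACTA2* and 11.9% of those of *CCN2*, and the strand setting of the counts was not stated. The 1 higher gene, *CDKN2B*, named to complete the count, was at 0.39, and no gene of the list was higher at 0.05 without miControl replicate 1 or replicate 2, where 5.19% and 5.85% of all tested genes were.

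Transcripts known to respond to SMAD1, SMAD5 and SMAD9 went both ways. Of 11 tested, 1 was called higher, *ID1*, and none was called lower by edgeR or DESeq2, where 2.90% and 5.54% of all tested genes were. At an adjusted p-value of 0.05, 3 were higher and 3 lower, against 14.1% and 16.1% of all tested genes, and at an unadjusted 0.05 these counts were 4 and 3, against 20.0% and 20.3%. *ID1*, which encodes an inhibitor of basic helix-loop-helix factors, had 11.2 and 10.5 CPM in miControl and 24.6 and 20.1 CPM in miR-6133-5p, so that it was higher by 1.04 on the log2 scale (standard error 0.132, edgeR adjusted p = 6.13e-05). The direction of *ID1* was opposite to that of *SMAD1* and *SMAD9*. *SMAD5*, the member with the highest level per length, did not pass the test, with 0.04 (edgeR adjusted p = 0.813). *GREM1*, a BMP antagonist with the highest CPM of the list, was lower, with -0.50 on the log2 scale (standard error 0.0994, edgeR adjusted p = 0.00203), with adjusted p-values of 0.0618 and 0.0545 without miControl replicate 1 and replicate 2. Leaving out miControl replicate 1 left 0 lower genes in the list and miControl replicate 2 left 1, where 8.25% and 9.70% of all tested genes were lower. Without miR-6133-5p replicate 1 there was 1 gene called lower (5.40% of all tested genes were), without miR-6133-5p replicate 2 there were 2 called higher (3.07%), and with library totals alone 2 were called higher (5.35%).

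Among 26 tested nuclear cofactors of SMADs, 2 were called lower and 1 higher, against 5.54% and 2.90% of all tested genes, and 10 were lower and 3 higher at an adjusted p-value of 0.05, against 16.1% and 14.1%. The median log2 fold change was -0.26, -0.10 with library totals alone and -0.37 without miR-6133-5p replicate 2. *RUNX1*, a transcription factor that binds SMADs, was called lower with -0.97 (standard error 0.104). *ERBIN*, with the highest CPM of the list and encoding a protein known to bind SMAD2 and SMAD3, was lower, with -0.68 on the log2 scale (standard error 0.121, edgeR adjusted p = 0.000892), short of a call except without miControl replicate 1 (-0.84, adjusted p = 0.00751). The count of lower cofactors at 0.05 was 5 without miControl replicate 1 and 5 without miControl replicate 2, where the share of all tested genes also went down, to 8.25% and 9.70%. The count of higher ones was 1 without miControl replicate 1 and 2 without miControl replicate 2 (5.19% and 5.85% of all tested genes), and 1 cofactor was called lower without miR-6133-5p replicate 1 (5.40%).

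**Figure D5:**
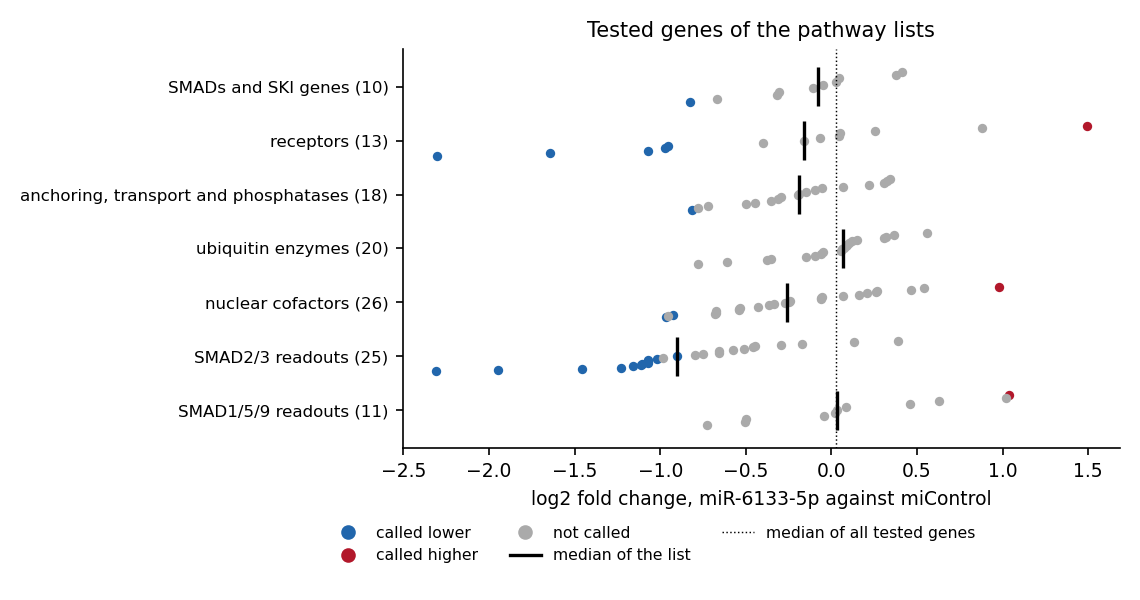
Log2 fold change of each tested gene of the SMAD family and of the pathway lists, miR-6133-5p against miControl, with the number tested in brackets. Blue and red points were called lower and higher, thick lines are list medians and the dotted line is the median of all tested genes, so that the SMAD2 and SMAD3 readouts, at a median of -0.90, lie farther to the left than the SMAD and SKI genes, at -0.08.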

How the data were processed

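The data were RNA-seq counts from LX-2 cells, with 2 libraries for miR-6133-5p and 2 for miControl. The authors aligned read pairs to GRCh37 with STAR 2.5.3a and deposited raw counts per Ensembl gene from featureCounts (Subread 1.6.4, in the submitters' processing notes). The annotation release and strand setting are not given in the sources used here, nor is how reads matching several genes were treated. The deposited fraction of input pairs mapped to 1 place, converted to percent, was 96.5 to 96.8. Totals came to between 1.62 and 1.65 counts per input pair, so counts are not independent fragments.

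After filterByExpr and TMM scaling, glmQLFit and glmQLFTest of edgeR 4.0.16 (R 4.3.3) were applied, with Benjamini–Hochberg adjustment over 18252 genes. The thresholds for a call followed the study's methods. Alternatives were RLE, library totals alone, DESeq2 1.42.0, no filter, at least 10 counts in every library, a replicate block, each library left out and glmTreat. The procedure was tested on simulated data. Positions, lengths and overlaps came from a GENCODE annotation on GRCh37, which matched 55665 of 63677 identifiers and need not be the one used for counting. Tables and plots were made in Python 3.11.15 with pandas 2.3.3 and matplotlib 3.10.9. Members and lists were chosen with earlier results of these data known. Named genes were all members, *TGFBR2*, and from each list up to 4 called genes per direction and the gene with the highest mean log2 CPM, and a few of the genes so chosen are not reported here. Seed matches of miR-6133-5p were not analysed here.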

Additional observations from a re-analysis of the deposited data

How the results depend on the processing

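The log2 fold changes of the 5 SMAD and SKI genes past an adjusted p-value of 0.05 kept their direction under every alternative tried, whereas those of *SMAD2*, *SMAD4*, *SMAD5* and *SKIL*, none past the test, changed sign in at least 1. Of 100 combinations of a member and an alternative other than glmTreat, under which no member was below 0.05, 91 kept their side of 0.05 and 9 did not, all of *SMAD3*, *SMAD7* or *SKI*. With library totals alone, 0 members were called lower and 2 were lower at 0.05, while of all tested genes 3.88% were called lower and 5.35% higher, and 11.1% were lower and 25.2% higher at 0.05. In the lists that scaling gave 2 higher receptors at 0.05, 0 anchoring and transport genes called lower with 4 lower and 4 higher at 0.05, 2 lower and 5 higher ubiquitin enzymes, 1 cofactor called lower and 6 higher at 0.05, 2 higher SMAD2 and SMAD3 readouts, and 2 SMAD1, SMAD5 and SMAD9 readouts called higher with 1 lower at 0.05. Testing against the fold itself with glmTreat left 0 members, 2 receptors, 0 anchoring and transport genes, 0 cofactors and 4 SMAD2 and SMAD3 readouts called lower, and 0 cofactors and 0 SMAD1, SMAD5 and SMAD9 readouts called higher, as the test is stricter by construction (1.79% of all tested genes were called lower and 0.438% higher). Without a filter on low counts there were 2 higher receptors, 4 higher ubiquitin enzymes and 2 SMAD1, SMAD5 and SMAD9 readouts called higher, with 8.62% of all 33293 genes then tested higher at 0.05 and 2.10% called higher. The replicate numbers share only a number (correlation of replicate differences between the groups 0.049). A replicate block left 1 member called lower, 4 lower and 1 higher at 0.05, and gave 2 higher receptors, 4 higher ubiquitin enzymes and 2 SMAD1, SMAD5 and SMAD9 readouts called higher, with 16.7% of all tested genes higher and 18.2% lower at 0.05 and 3.52% called higher and 6.19% called lower. With each library left out, where the lone library of a group is assumed to vary like the other group, members called lower ran from 0 to 1, members lower at 0.05 from 2 to 4 and members higher from 0 to 1. Of all tested genes, 3.95% to 6.53% were called lower and at most 3.07% higher in these fits, and 8.25% to 18.7% were lower and 5.19% to 15.4% higher at 0.05, least without a miControl library. At 0.05, higher receptors ran from 1 to 2, lower and higher anchoring and transport genes from 4 to 8 and 0 to 3, lower and higher ubiquitin enzymes from 2 to 4 and 1 to 4, lower and higher cofactors from 5 to 12 and 1 to 4, higher SMAD2 and SMAD3 readouts from 0 to 1, and lower SMAD1, SMAD5 and SMAD9 readouts from 0 to 3. Called lower were 0 to 1 ubiquitin enzymes, 1 to 3 cofactors and 0 to 1 SMAD1, SMAD5 and SMAD9 readouts, of which 1 to 2 were called higher. The cause of these shifts was not tested. *SMAD6* had the fewest counts of the 10 genes, at most 191 in a library.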

Other observations

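Genes that anchor, carry or dephosphorylate SMADs and enzymes that add or remove ubiquitin on SMAD and SKI proteins were read from 2 further lists. Of 18 anchoring, transport and phosphatase genes, all tested, 1 was called lower and none higher by edgeR or DESeq2, where 5.54% and 2.90% of all tested genes were. At an adjusted p-value of 0.05, 8 were lower and 2 higher, against 16.1% and 14.1% of all tested genes, and at an unadjusted 0.05, 8 and 3, against 20.3% and 20.0%. Their median log2 fold change was -0.19, and -0.03 with library totals alone. *IPO7*, an importin known to carry SMADs into the nucleus, was the gene called lower. It had 621 and 714 CPM in the miControl libraries and 366 and 392.1 CPM in the miR-6133-5p libraries, without overlap, and changed by -0.82 on the log2 scale (standard error 0.109, edgeR adjusted p = 9.66e-05). Its fold fell short of 0.8 with library totals alone (-0.65), without miControl replicate 2 (-0.74) and without miR-6133-5p replicate 1 (-0.79), and in the fits without those libraries another gene of the list was called. *KPNB1*, importin beta, with the highest CPM of the list, had -0.29 (standard error 0.0994, adjusted p = 0.0409), and adjusted p-values of 0.251 and 0.252 without miControl replicate 1 and replicate 2. With library totals alone it had -0.13 (adjusted p = 0.345). Lower genes numbered 4 without either miControl library, and higher ones 0 and 1, in fits where 8.25% and 9.70% of all tested genes were lower and 5.19% and 5.85% higher.

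None of 20 ubiquitin enzymes, all tested, was called lower or higher by edgeR or by DESeq2, where 5.54% and 2.90% of all tested genes were. At an adjusted p-value of 0.05, 4 were lower and 2 higher, against 16.1% and 14.1% of all tested genes, and at an unadjusted 0.05 there were 4 and 4, against 20.3% and 20.0%. The median log2 fold change was 0.07, or 0.23 with library totals alone, and ran from 0.02 to 0.06 with 1 library left out. *SMURF2*, with the highest CPM of the list and encoding a ligase that SMAD7 brings to its targets, had 845 and 881 CPM in the miControl libraries and 512 and 493 CPM in the miR-6133-5p libraries, with no overlap. Its log2 fold change was -0.78 (standard error 0.101, edgeR adjusted p = 7.09e-05), just short of the fold for a call, and it was called lower without miControl replicate 1 (-0.82) and without miR-6133-5p replicate 1 (-0.83). Lower enzymes numbered 2 without miControl replicate 1 and 2 without miControl replicate 2, higher ones 1 in each, where 8.25% and 9.70% of all tested genes were lower and 5.19% and 5.85% higher, and 4 were higher without miR-6133-5p replicate 2 (15.4% of all tested genes).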
